A study of Mus musculus with 10 samples.

Results

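The basement membrane collagens and laminins were followed in the heart of mice labelled as knockouts of the nuclear kinase HIPK2. The set comprised 10 genes: the type IV collagen chains Col4a1, Col4a2, Col4a3, Col4a4 and Col4a5, the laminin chains Lama2, Lama4, Lamb1 and Lamc1, and nidogen 1, Nid1. They are 10 of the 37325 gene names on the array, and all probes that are not controls and carry one of these names were taken, which gave 29 of 56605 probes. Of the 29 probes, 23 passed the filter on dim signals, which asked that, in either genotype, 4 or more of the 5 arrays show the probe well above background. These 23 probes covered 9 genes, and Col4a3 was left without a measured level.

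A basement membrane is the thin sheet of matrix that surrounds cardiac muscle cells and underlies the endothelium of heart vessels. Laminins, each built from an alpha, a beta and a gamma chain, form the layer bound by cell surface receptors, type IV collagen forms a covalently linked network, and nidogen bridges the laminin and collagen layers. The Col4a1 and Col4a2 chains assemble together into the network found in nearly all tissues, while Col4a3, Col4a4 and Col4a5 form the network best known from kidney and lung. In heart and skeletal muscle, Lama2 gives the laminin of muscle cells and Lama4 that of small vessels.

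The study compared 5 cardiac samples labelled HIPK2 knockout with 5 labelled wild type, all from male mice, each on its own 1-colour Agilent array. According to the series' design text, CRISPR gave a frameshift deletion in the second exon of Hipk2 in C57BL/6 mice, and carriers were bred to C57BL/6 wild type; the wild-type samples are labelled C57BL/6. The labels give no age, no part of the heart and no sign that a promoter or Cre limits the deletion to one cell type. Samples are numbered within a genotype, and nothing states that different numbers are different mice; p-values therefore speak only of the variation among these 10 samples, which may be technical. The comparison asks how expression in the heart differs when the kinase is missing.

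All signals are given as log2 of the array's processed signal minus log2 of that array's 75th percentile, so 0 is the 75th percentile and 1 unit is a doubling. The 75th percentile itself averaged 378 (SD 75.3) over the knockout arrays and 499.5 (SD 31.9) over the wild-type arrays (n = 5 each; two-sided exact permutation p = 0.00794, the smallest this design can give; 0.0437 after Benjamini-Hochberg adjustment over 11 array measures). Spots well above background made up a smaller share in knockout too, from 45.8% to 58.3% against 55.7% to 60.4% (exact permutation p = 0.0397; adjusted 0.0728), and its part in the results was not tested. The 3 Hipk2 probes differed by 0.04, -0.01 and 0.11 between genotypes (SE 0.17, 0.09 and 0.10; limma adjusted p of 0.903, 0.96 and 0.473), and where these probes lie relative to the deletion was not established, so they do not check the labels. Slide 1 held only wild-type replicates 1 and 2, and slide 2 held the other 8 arrays. All 8 markers of cardiac muscle were measured, and their mean was 8.14 ± 0.149 over the knockout arrays and 7.77 ± 0.21 over the wild-type arrays (exact permutation p = 0.0159; adjusted 0.0437). The mean of the 3 atrial markers ranged from -2.75 to 1.56 in knockout and from -3.02 to 4.81 over the wild-type arrays (exact permutation p = 0.127). In bulk tissue, fewer cells of a type and less RNA per cell cannot be told apart.

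Col4a1, the collagen chain shared by nearly all basement membranes, fell in the knockout hearts. It was the only one of the 9 measured genes to pass the threshold of 0.05 on the adjusted p, and no member rose. Across the 20607 genes tested, 2.97% fell and 1.97% rose in knockout. Of the 8 members that missed the threshold, 6 had lower values in knockout and 2, Col4a5 and Lama2, had higher ones. Of all 20607 genes, 9450 had lower values in knockout. The median log2 difference of the 9 genes was -0.28, against 0.03 for all genes tested.

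The probes on which the results for collagen and laminin turn are shown so that the part of each transcript that was measured can be seen. Each is 60 bases long, and for probes that may lie in an untranslated end only the first 30 bases are printed. Positions come from the array files and refer to mm9, for which exon annotation was not used here, and no base is singled out by capitals.
Col4a1, chr8:11199009-11199068, minus strand: ttttcgtctctggagaaactgtactatcct
Col4a2, chr8:11448840-11448899, plus strand: cagtcttcctaaaatgaggcagagtctagg
Col4a5, chrX:138123547-138123606, plus strand: gacagtatttgcttagtcttctcccttcaa
Nid1, chr13:13604417-13604476, plus strand: tgcttattaatggttctccagatgtataca
Lamb1, chr12:32014411-32014470, plus strand: ccgaggcagtcatctacaaataacccatca
Lama4, chr10:38825794-38825853, plus strand: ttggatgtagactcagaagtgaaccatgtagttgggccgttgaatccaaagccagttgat

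In wild-type replicates 1 to 5, Col4a1 signal was 4.85, 4.77, 4.93, 5.03 and 5.13, and in knockout replicates 1 to 5 it was 3.94, 4.05, 4.16, 3.97 and 4.24. The knockout arrays all lay under the wild-type ones, with a gap wider than the range of either genotype. Knockout arrays averaged 4.07 ± 0.125 and wild-type arrays 4.94 ± 0.141 (SD, n = 5). The difference was -0.87 ± 0.10 (SE; 95% interval -1.08 to -0.66), a 1.83-fold lower signal (limma adjusted p = 0.00409). Knockout values lay wholly below wild-type values for 4.44% of all genes. The call held with each of the 10 arrays left out, with differences from -0.91 to -0.83 and an adjusted p of at most 0.016. Within slide 2 the difference was -0.96 (adjusted p = 0.0103). With the fat score as a covariate the difference was -0.90 but missed the threshold (adjusted p = 0.0508). That score, the mean of Cfd, Car3, Cidec and Retn, ranged from -5.04 to -2.96 in knockout and from -4.17 to 0.29 in wild type. Its exact permutation p was 0.0397, or 0.0728 adjusted over the 11 measures. Of the same list, Adipoq and Plin1 were not measured. Cfd, Car3 and Retn passed the filter only through the wild type, where their signal is higher. Nothing is therefore read from that p, and the covariate fit rests partly on knockout values near background.

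Col4a2, whose product assembles with that of Col4a1, was 4.41, 4.21, 4.70, 4.72 and 4.80 in wild-type replicates 1 to 5 and 3.84, 4.07, 4.25, 4.12 and 4.26 in knockout replicates 1 to 5. The groups overlapped at wild-type replicate 2. The difference was -0.46 ± 0.13 (95% interval -0.75 to -0.17) and missed the threshold over all 10 arrays (limma adjusted p = 0.0658). Wild-type replicates 1 and 2, the only arrays of slide 1, were the lowest of their genotype. Within slide 2, where the 3 wild-type arrays all lay above the 5 knockout arrays, Col4a2 fell, with a difference of -0.64 ± 0.11 (adjusted p = 0.0325).

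**Figure D1:**
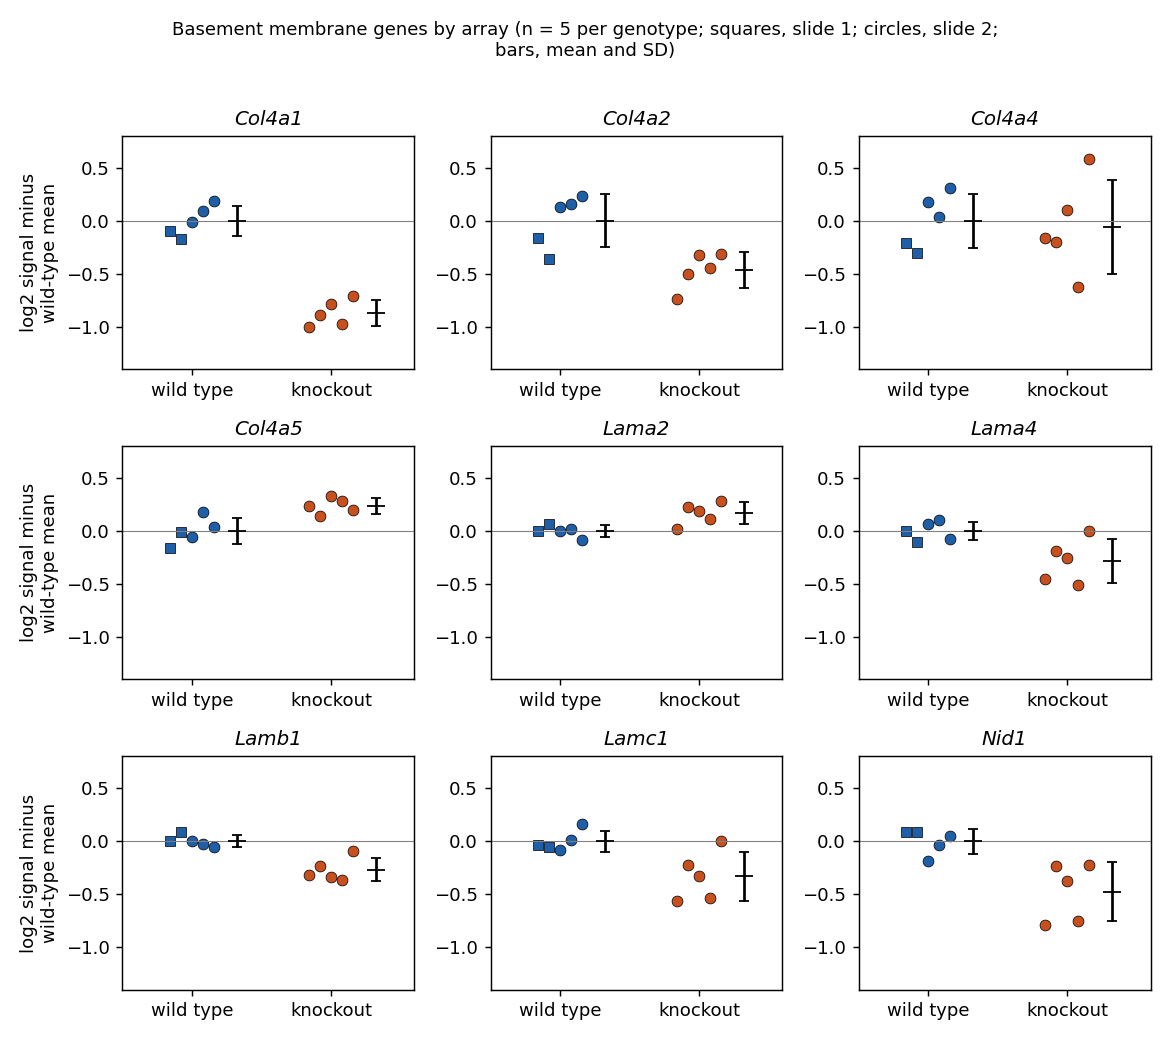
Log2 signal of the brightest probe of each of the 9 measured genes on every array, as the difference from that gene's wild-type mean; points are arrays (squares on slide 1, circles on slide 2) and bars are the mean and SD of 5 arrays. The 5 knockout points lie below all wild-type points for Col4a1, Lamb1 and Nid1, only narrowly for Lamb1 and Nid1, while Col4a4 spreads over both genotypes.

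Col4a1 and Col4a2 lie head to head, on opposite strands of chromosome 8. In the RefSeq promoter table, built on GRCm38.p6 and holding 7 of the 10 genes, their start sites lie 21 bases apart and their windows, 250 bases before to 50 after the start, overlap by 78 bases. Each of the windows holds both start sites, and only the Col4a1 window is printed. Capitals mark matches, on either strand, to GGGCGG (reverse CCGCCC), a GC box, and to CCAAT (reverse ATTGG).
Col4a1 promoter, chr8:11312777-11313076, minus strand: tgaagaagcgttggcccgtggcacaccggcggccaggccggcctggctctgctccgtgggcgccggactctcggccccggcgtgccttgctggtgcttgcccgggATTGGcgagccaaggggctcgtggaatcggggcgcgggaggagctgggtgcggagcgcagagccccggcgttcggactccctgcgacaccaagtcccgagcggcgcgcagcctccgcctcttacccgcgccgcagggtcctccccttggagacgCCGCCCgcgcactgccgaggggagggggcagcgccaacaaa
The Col4a1 window held 1 match to each motif, and the Col4a2 window held 3 GC box matches and 1 CCAAT match. The GC box match of the Col4a1 window lies in the 78 shared bases and is 1 of the 3 in the Col4a2 window. Of 32851 windows of this length, 35.7% held the GC box letters and 37.4% held CCAAT. The TATA box letters, TATAAA or in reverse TTTATA, were in neither window and in 13.6% of all. No match overlapped another in the printed window.

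The pair was also compared on each array directly, which removes any scaling between arrays. Col4a1 was made the reference with its lower signal already known from earlier results. Col4a2 minus Col4a1 lay between -0.10 and 0.15 on the knockout arrays and between -0.56 and -0.23 on the wild-type arrays, without overlap. This ratio was higher in knockout by 0.41 ± 0.11 (limma on each gene minus Col4a1, adjusted p = 0.00386). The other 7 measured members also differed from Col4a1 in this fit, from 0.40 ± 0.14 for Nid1 (adjusted p = 0.0152) to 1.11 ± 0.12 for Col4a5 (adjusted p = 1.74e-05). Nid1 was the only one of these 8 whose ratios overlapped between genotypes. The share of all genes whose ratios to Col4a1 did not overlap was not determined, so nothing is read from the lack of overlap. All 8 passed, but in the same fit 91.4% of all genes passed and 91.2% were higher relative to Col4a1 in knockout, so a member that is higher relative to Col4a1 does what most genes on the array do.

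After each genotype's own mean was removed, Col4a2 followed Col4a1 across the 10 arrays with a Pearson r of 0.887 and a Spearman rho of 0.952, rank 53 of 20596 genes. These values are descriptive, since all genes on an array share its RNA and its scaling, and high values arise among so many genes on 10 arrays. The 5 named genes with the highest r were Zfp513 at 0.977, Rsad1 at 0.972, Rasa3 at 0.97, Sh3tc1 at 0.959 and Rab8b at 0.959. Of these, only Sh3tc1 passed the threshold between genotypes (-0.43 ± 0.10, limma adjusted p = 0.0401). Among the other members r was 0.833 for Col4a4, 0.78 for Lamc1, 0.617 for Lama4 and 0.439 for Nid1, and lowest for Col4a5 at 0.375, Lama2 at 0.203 and Lamb1 at 0.111.

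Neither measured chain of the more restricted collagen network passed the threshold. Col4a5, on the X chromosome, was 0.39, 0.30, 0.49, 0.44 and 0.36 in knockout replicates 1 to 5 and 0.00062, 0.15, 0.10, 0.33 and 0.20 in wild-type replicates 1 to 5. Knockout replicate 2 lay below wild-type replicate 4, and the other 4 knockout arrays lay above all wild-type arrays. The difference was 0.24 ± 0.08 (95% interval 0.05 to 0.42; limma adjusted p = 0.106), and the other Col4a5 probe differed by 0.36 ± 0.13 in the fit over probes (adjusted p = 0.118).

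Col4a4 ranged from -2.98 to -1.77 in knockout and from -2.65 to -2.04 in wild type, so its knockout range enclosed the wild-type one. Its difference of -0.06 ± 0.21 had an interval of -0.52 to 0.39 (limma adjusted p = 0.871), and its other probe differed by 0.04 ± 0.22. The sign of the Col4a4 difference turned with normexp background correction (0.15), with the atrial score as a covariate (0.05), without knockout replicate 4 (0.08) and without wild-type replicate 5 (0.01). For Col4a3, 1 probe was well above background on 1 wild-type array of the 10 and the other on none, so no difference is given.

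Among the laminin alpha chains, Lama4 of the vessel laminin and Lama2 of the muscle laminin had differences of opposite sign, and neither passed the threshold. Lama4 was 2.52, 2.42, 2.58, 2.63 and 2.45 in wild-type replicates 1 to 5 and 2.07, 2.33, 2.26, 2.01 and 2.52 in knockout replicates 1 to 5. Only knockout replicate 5 reached the wild-type range. The difference was -0.28 ± 0.11 (95% interval -0.52 to -0.05; limma adjusted p = 0.126).

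Lama2 was 3.57, 3.64, 3.57, 3.58 and 3.48 in wild-type replicates 1 to 5 and 3.59, 3.79, 3.76, 3.68 and 3.85 in knockout replicates 1 to 5. All knockout arrays but replicate 1 lay above all wild-type arrays. The difference was 0.17 ± 0.08 (95% interval -0.0021 to 0.34; limma adjusted p = 0.188).

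Lamb1 and Lamc1, the beta and gamma chains that pair with either alpha chain, had lower values in knockout without passing the threshold. Lamb1 was 3.83, 3.91, 3.82, 3.79 and 3.77 in wild-type replicates 1 to 5 and 3.50, 3.59, 3.48, 3.46 and 3.73 in knockout replicates 1 to 5. The groups did not overlap, although knockout replicate 5 came close to the lowest wild-type array. The difference was -0.27 ± 0.08 (95% interval -0.44 to -0.10; limma adjusted p = 0.0674).

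Lamc1 ranged from 3.65 to 4.21 in knockout, with a median of 3.88, and from 4.13 to 4.37 in wild type, with a median of 4.17. Knockout replicate 5 lay inside the wild-type range and the other 4 lay below it. The difference was -0.33 ± 0.11 (95% interval -0.58 to -0.08; limma adjusted p = 0.104).

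Nid1, the linker between the laminin and collagen layers, was 3.25, 3.25, 2.97, 3.12 and 3.21 in wild-type replicates 1 to 5 and 2.37, 2.92, 2.79, 2.40 and 2.94 in knockout replicates 1 to 5. The groups did not overlap, although knockout replicate 5, at 2.94, came close to wild-type replicate 3, at 2.97. Knockout replicates 1 and 4 were the lowest. The difference was -0.48 ± 0.13 (95% interval -0.77 to -0.19), a 1.39-fold lower signal that missed the threshold (limma adjusted p = 0.0615). Knockout replicates 1 and 4 were also the lowest 2 arrays for Lama4 and Lamc1. With Col4a1 and Lamb1, Nid1 made 3 of 9 genes whose knockout values lay wholly below the wild-type values, beside 4.44% of all genes. No member lay wholly above, which 4.54% of all genes did.

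The number of members past the threshold differed between processing settings. With normexp background correction at an offset of 50, 6 of the 9 fell, namely Col4a1, Col4a2, Lama4, Lamb1, Lamc1 and Nid1, with differences of -0.94, -0.53, -0.34, -0.34, -0.42 and -0.52. In that fit 4.27% of all genes fell, and rises made up 71.6% of all calls, against 39.8% as reported here. With scaling to the array median, 3 members fell (Col4a1, Col4a2 and Nid1), beside 3.71% of all genes, and rises made up 19.9% of calls. Without knockout replicate 5, Lamb1 and Lamc1 joined Col4a1 past the threshold (limma adjusted p = 0.0494 for both), and 2.88% of all genes fell. Lamb1 and Lamc1 each passed in only 1 of the 10 fits that left out an array. The differences of the 8 measured members other than Col4a4 kept their sign under all 12 alternatives and with each array left out.

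**Figure D2:**
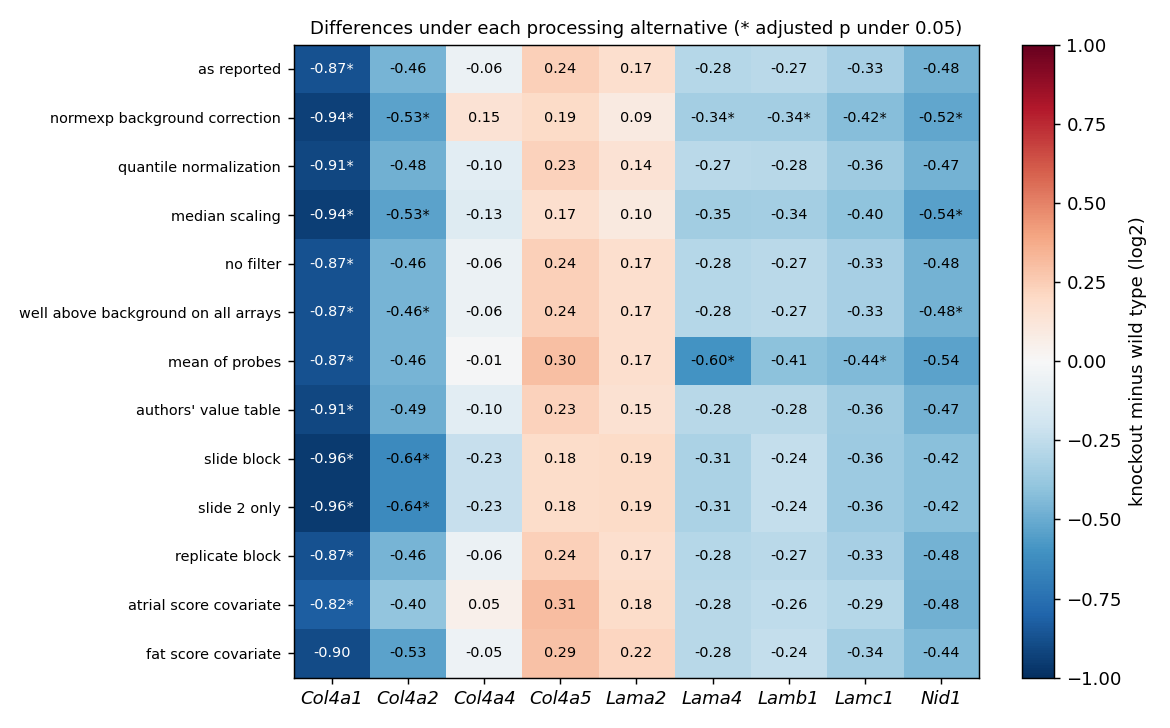
Knockout minus wild type on the log2 scale for the 9 measured genes (columns) as reported and under 12 processing alternatives (rows), coloured from blue for lower to red for higher in knockout; an asterisk marks an adjusted p under 0.05. Col4a1 is marked in all of them except with the fat score as a covariate.

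Col4a1 and Col4a2 have 1 probe each, so the Col4a1 call rests on a single place in its transcript, while the other members had several probes. In a fit over all 30693 probes that passed the filter, 3 of the 23 member probes passed with lower values in knockout and none with higher ones, where 2.76% of all probes fell and 1.69% rose. The knockout values of 7 member probes lay wholly below the wild-type values, which 4.41% of all probes did, and those of no member probe lay wholly above, which 4.09% did. The 3 past the threshold were the Col4a1 probe, a dim Lama4 probe and a dim Nid1 probe. The dim pair passed the filter only through the wild type, where their signal is higher, so nothing is read from these counts.

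The dim Lama4 probe (chr10:38773974-38774033) was at -5.86, -5.77, -5.25, -5.92 and -5.08 in knockout replicates 1 to 5 and at -4.94, -4.40, -4.27, -4.14 and -4.14 in wild-type replicates 1 to 5. The groups did not overlap. The probe was well above background on 0 of 5 knockout and 4 of 5 wild-type arrays, so its knockout level is only bounded, the bound lies above the wild-type mean, and no difference or test is given. The 2 brighter Lama4 probes differed by -0.28 ± 0.11 and -0.32 ± 0.13.

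The dim Nid1 probe spans 25855 bases of the genome, so it crosses at least 1 exon junction. It was at -3.89, -3.85, -3.30, -4.43 and -3.67 in knockout replicates 1 to 5 and at -3.13, -2.98, -2.87, -3.40 and -2.92 in wild-type replicates 1 to 5. Knockout replicate 3 lay above wild-type replicate 4. The probe was well above background on 2 of 5 knockout and 5 of 5 wild-type arrays. Its fitted difference of -0.77 ± 0.19 (limma over probes, adjusted p = 0.0471) therefore rests on 3 knockout values near background and is given as a description. The other 2 Nid1 probes differed by -0.48 ± 0.13 and -0.36 ± 0.19.

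**Figure D3:**
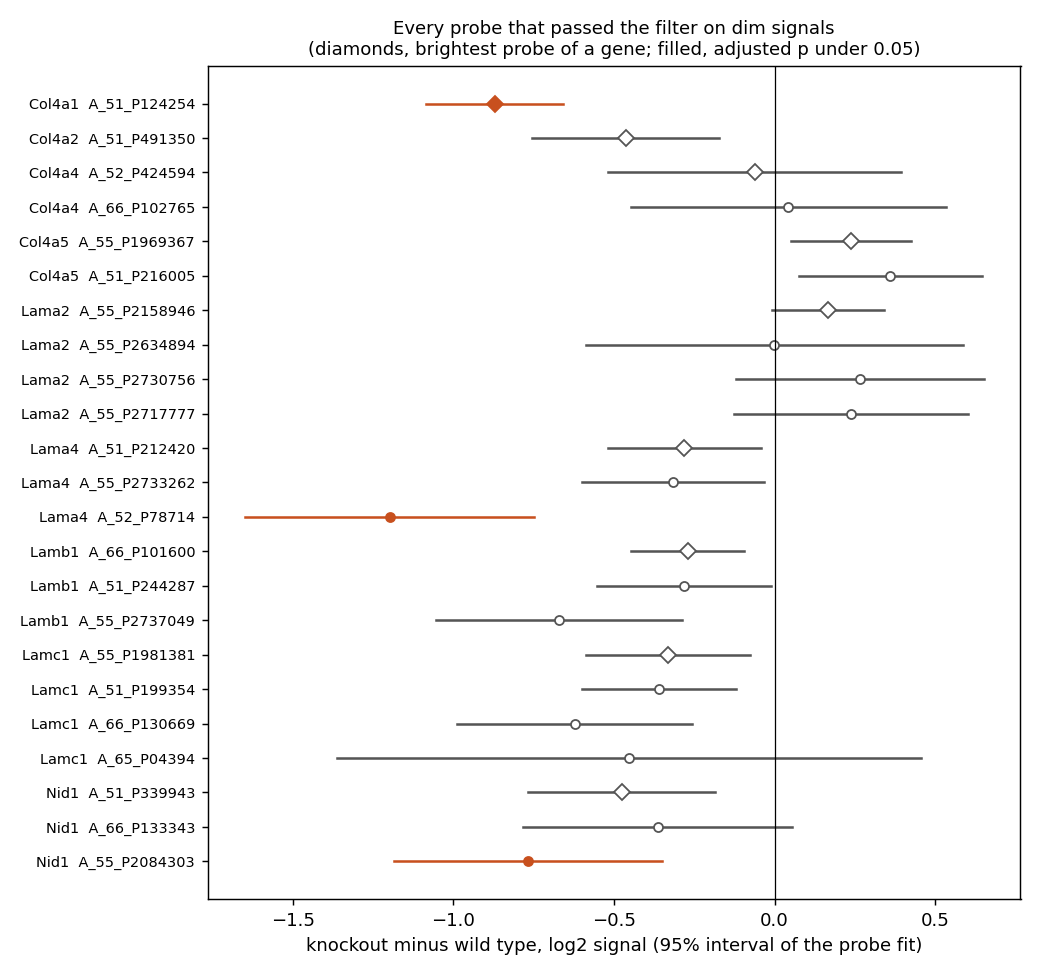
Knockout minus wild type on the log2 scale, with 95% intervals, for each of the 23 member probes that passed the filter; diamonds mark the brightest probe of a gene and filled symbols an adjusted p under 0.05. All probes shown of Lama4, Lamb1, Lamc1 and Nid1 lie below 0, and both Col4a5 probes lie above it. The lowest is the dim Lama4 probe, with only a bound in knockout. That probe and the dimmest shown of Nid1 and Lamc1 passed the filter only through the wild type, so nothing is read from their side of 0.

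The gamma chain offered a check on the probes themselves, since 2 of its 4 probes share a run of 55 bases. Their last 30 bases are printed, with capitals for the bases outside that run.
Lamc1 brightest probe, chr1:155066156-155066215, minus strand: tagctgtttgccttaatctctacagccTTC
Lamc1 shifted probe, chr1:155066154-155066213, minus strand: gctgtttgccttaatctctacagccATTCC
The shifted probe was at 3.67, 4.04, 3.83, 3.63 and 4.11 in knockout replicates 1 to 5 and at 4.13, 4.18, 4.20, 4.26 and 4.32 in wild-type replicates 1 to 5. It separated the genotypes, while the brightest probe did not. The differences were close, -0.33 ± 0.12 for the brightest and -0.36 ± 0.11 for the shifted probe (limma over probes, adjusted p of 0.111 and 0.0795). Because they measure the same stretch, they are not independent readings.

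Probes that cross exon junctions were also read for Lamc1 and Lamb1, and both are printed whole because their genomic spans exceed their length.
Lamc1 junction probe, chr1:155077970-155078896, minus strand: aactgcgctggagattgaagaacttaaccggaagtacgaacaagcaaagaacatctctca
Lamb1 junction probe, chr12:32012684-32014030, plus strand: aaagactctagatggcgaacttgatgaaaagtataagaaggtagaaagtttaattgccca
The Lamc1 junction probe was at -0.30, -0.20, -0.64, -0.67 and -0.14 in knockout replicates 1 to 5 and at 0.20, 0.40, 0.67, -0.09 and -0.02 in wild-type replicates 1 to 5. The groups did not overlap, with a difference of -0.62 ± 0.17 (limma over probes, adjusted p = 0.0585). The Lamb1 junction probe was at 1.46, 1.86, 1.55, 1.55 and 1.89 in knockout replicates 1 to 5 and at 2.13, 2.16, 1.82, 1.82 and 1.79 in wild-type replicates 1 to 5. Here wild-type replicates 1 and 2 of slide 1 were the highest and the other 3 lay within the knockout range, and the difference was -0.28 ± 0.12 (adjusted p = 0.177). Another Lamb1 probe, chr12:31967514-31967573, separated the genotypes with a difference of -0.67 ± 0.17 (adjusted p = 0.0541). The 4 measured Lama2 probes differed by 0.17, -0.0015, 0.27 and 0.24, none past the threshold. The remaining Lamc1 probe, well above background on 1 knockout and 4 wild-type arrays, differed by -0.45 ± 0.41 (adjusted p = 0.51). Apart from those of Col4a3, 4 probes failed the filter, 1 of Lama2, 1 of Lama4 and 2 of Lamb1, none of them well above background on more than 2 arrays of a genotype.

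Because type IV collagen and laminins are made in quantity by endothelium, the members were set beside 8 endothelial markers. The mean of these markers ranged from 2.47 to 2.70 in knockout and from 2.82 to 2.97 in wild type, without overlap (exact permutation p = 0.00794; 0.0437 adjusted over 11 measures). All 8 had lower values in knockout and 2 fell, the vascular growth factor receptor Kdr (-0.80 ± 0.13, limma adjusted p = 0.0147; 0.0532 without a filter, 0.0739 with the atrial score and 0.14 with the fat score) and the endothelial sialomucin Emcn (-0.41 ± 0.10, adjusted p = 0.0433; it passed in 1 of the 10 fits that each dropped 1 array). Relative to this mean, a scale chosen after the values were seen, Col4a1 lay between 1.42 and 1.53 in knockout and between 1.96 and 2.23 in wild type, a difference of -0.57 without overlap. Lama4, Lamb1 and Lamc1 differed by 0.02, 0.03 and -0.03 on that scale, Col4a2 by -0.16 and Nid1 by -0.18, each with overlapping groups. Lama2 lay between 1.09 and 1.16 in knockout and between 0.58 and 0.82 in wild type, without overlap. Col4a5 lay between -2.35 and -2.08 in knockout and between -2.88 and -2.60 in wild type, also without overlap. The 8 markers did not differ equally, from -0.10 for Tie1 to -0.80 for Kdr, and a mean without Kdr was not computed. The marker mean itself differed by -0.30 between genotypes, which alone moves every gene's difference upward by that amount on this scale. The share of all genes without overlap on it was not determined. Neither Lama2 nor Col4a5 passed the threshold in the gene fit (limma adjusted p of 0.188 and 0.106), so neither is read as raised. The values on this scale are descriptions with no test, and the part of endothelial RNA in the members' differences was not tested.

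**Figure D4:**
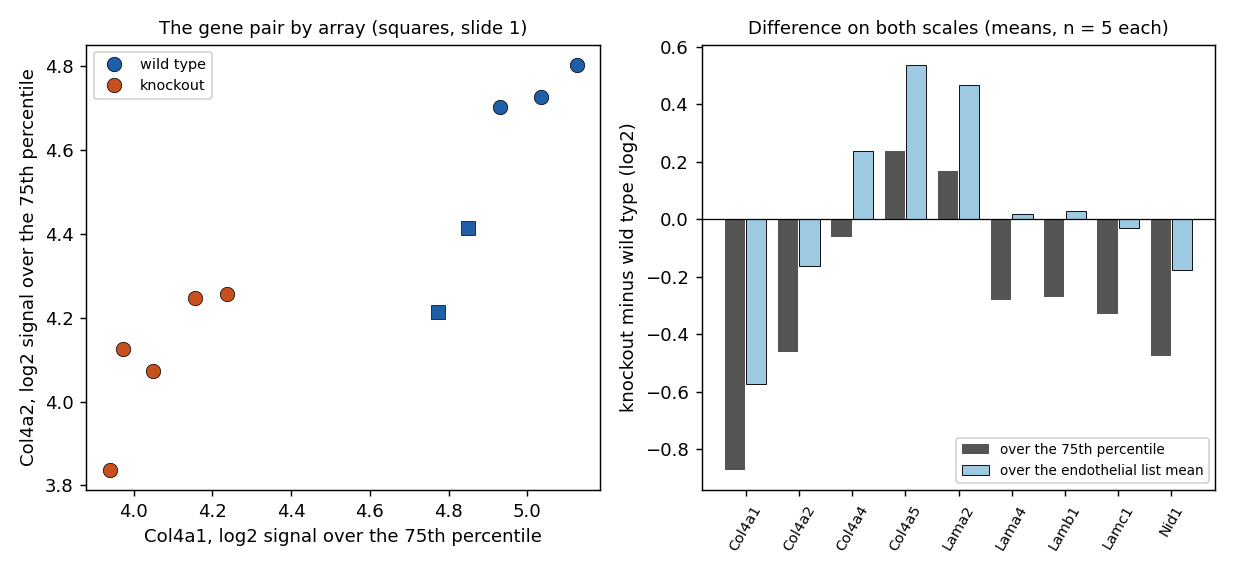
Left, Col4a2 against Col4a1 log2 signal on each of the 10 arrays; right, knockout minus wild type of each measured gene over the array's 75th percentile and over the mean of 8 endothelial markers, as bars from 0. The bar of Col4a1 goes from -0.87 to -0.57 with the change of scale, and those of Lama4, Lamb1 and Lamc1 go to between -0.03 and 0.03.

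Other cell type lists moved with genotype as well. The mean of 9 macrophage markers was 1.68 ± 0.248 over the knockout arrays and 2.04 ± 0.105 over the wild-type arrays (exact permutation p = 0.0159; adjusted 0.0437), with all 9 lower in value and none past the threshold. Fibroblast markers differed by -0.22 (exact permutation p = 0.23) and mural cell markers by -0.06 (exact permutation p = 0.54). The part of these cell types in the members' differences was not tested.

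The rest of the basement membrane machinery was read from 57 genes in 4 lists, of which 53 were measured. Of these, 2 fell and 1 rose, beside 2.97% and 1.97% of all genes, and their median difference was -0.06. Among 19 measured structural components none passed the threshold; the smallest p belonged to the fibulin Fbln1 (0.46 ± 0.14, limma adjusted p = 0.0823) and to Tinagl1 (-0.39 ± 0.14, adjusted p = 0.117). None of 12 receptors passed either, with Itga1, a collagen-binding integrin chain, at -0.43 ± 0.12 (adjusted p = 0.0564) and Itga6, a laminin-binding one, at 0.39 ± 0.10 (adjusted p = 0.0574). The sign of Itga6 turned when its probes were averaged (-0.30).

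Of 13 genes for collagen folding, modification and secretion, Plod2, a lysyl hydroxylase of collagen, rose and the other 12 did not pass. Its mean was 0.0066 ± 0.0913 in knockout and -0.54 ± 0.162 in wild type, without overlap, a 1.46-fold higher signal (0.55 ± 0.09, limma adjusted p = 0.0159). The call held with each array left out but under only 5 of 12 processing alternatives, being lost, for example, within slide 2 (0.53, adjusted p = 0.0537) and when probes were averaged (0.23, adjusted p = 0.323).

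Of 9 measured genes for turnover, the proteases Ctss and Mmp14 fell. Lower values were found for 8 of the 9, beside 9450 of all 20607 genes. Mmp9, among these 8, was well above background on 0 knockout and 4 wild-type arrays. It passed the filter only through the wild type, where its signal is higher, so nothing is read from that count of 8. Ctss, a cathepsin abundant in macrophages, went from 2.78 ± 0.163 in wild type to 2.16 ± 0.198 in knockout, 1.53-fold lower (-0.62 ± 0.12, limma adjusted p = 0.0214), and passed in 7 of the 10 fits that each dropped 1 array. Mmp14, a membrane-bound metalloprotease, differed by -0.85 ± 0.18 (adjusted p = 0.0322), passed in 3 of these 10 and differed by only -0.22 with normexp background correction (adjusted p = 0.0945). Neither passed within slide 2, where the differences were -0.61 for Ctss (adjusted p = 0.0626) and -0.85 for Mmp14 (adjusted p = 0.0937).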

How the data were processed

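Cardiac RNA of 5 HIPK2 knockout and 5 wild-type samples was hybridised to 1-colour Agilent arrays. The deposited array files hold spot intensity, which Agilent Feature Extraction 10.7.1.1 (per the submitters' processing notes) background-subtracted and detrended within each array, per the file headers, with no scaling between arrays. The authors also deposited a value table on a log2 scale, used only as an alternative; correlations of its columns with their own arrays, probe means removed, were 0.918 to 0.996, all have a median of 4.74, and its background treatment is not given in the sources used here.

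From the processed intensity, log2 was taken and the array's own 75th percentile (59305 spots, controls left out) was subtracted. Spots of a probe were averaged (56605 probes). Probes well above background on at least 4 of 5 arrays of a genotype were kept (30693), and a gene was read from its kept probe with the highest mean (20607 genes). RefSeq accessions named 32994 probes; 23611 kept the array's name. Genotypes were compared with limma 3.58.1 (R 4.3.3; lmFit, eBayes), adjusted over all genes or probes by Benjamini-Hochberg, threshold 0.05. For array measures, a two-sided exact permutation test used all 252 arrangements. The fits were tested on simulated data. The number of arrays limits the precision.

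All probes of the 10 genes are accounted for; of each other basement membrane list, genes past the threshold are named or, with none, the 2 with the smallest p. The members and lists were chosen with earlier results of these data known. Alternatives covered background correction, scaling, filter, probe choice, the value table, slide, replicate number, atrial and fat scores, and each array left out. Sequences are printed only for probes the results turn on, and 1 of these is not reported here.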

Additional observations from a re-analysis of the deposited data

How the results depend on the processing

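The number of members that fell, 1 as reported, was 6 with normexp background correction (4.27% of all genes fell), 3 with median scaling (3.71%), 3 when probes had to be well above background on all 10 arrays (3.67%), 3 with probes averaged (3.01%), 2 with slide as a block (2.56%), 2 within slide 2 (1.54%) and 0 with the fat score as a covariate (0.0146%), where Col4a1 had an adjusted p of 0.0508. It lay between 1 and 3 with an array left out, 3 without knockout replicate 5 (2.88%). The number of other basement membrane genes that fell, 2 as reported, was 6 with normexp, 4 with median scaling and 0 without a filter, within slide 2, and with the replicate block, the atrial score or the fat score, and lay between 0 and 4 with an array left out; of all genes, 0.217% fell without a filter, 0.573% with the replicate block and 0.15% with the atrial score, so these zeros lie near the overall rate. The number that rose, 1 as reported, was 2 with the stricter filter and 0 with median scaling, without a filter, with probes averaged, within slide 2, and with the replicate block, the atrial score or the fat score, and lay between 1 and 2 with an array left out. The number of member probes that fell, 3 as reported, was 8 with normexp, 1 without a filter and 1 with 1 probe per gene. It lay between 2 and 3 with an array left out. The 3 as reported take in the dim Lama4 and Nid1 probes, which passed the filter only through the wild type. Nothing is therefore read from these counts of probes. With normexp 2 member probes rose, and none, 0, rose with any array left out. In the normexp gene fit 2221 of 20607 genes rose and 879 fell, and the shares over all probes were not determined. The median of the members moved from -0.28 to -0.44 with probes averaged. That setting takes in the dim Lama4 and Nid1 probes and the dimmest measured Lamc1 probe, which passed the filter only through the wild type. Nothing is therefore read from this median or from the number of members that fell with probes averaged. Rises made up 53.2% of calls without a filter and 57.1% with the fat score, against 39.8% as reported. Reversed signs were those of Col4a4 (0.15 with normexp, 0.049 with the atrial score, and between -0.223 and 0.079 with an array left out, above 0 without knockout replicate 4 or without wild-type replicate 5) and Itga6 (-0.30 with probes averaged). Where a call was lost or gained, the cause was not tested. Deviations of arrays of the same replicate number had correlations from -0.11 to 0.05. No knockout array was matched best by the wild-type array of its own number. The numbers thus gave no sign of pairs, but a weak pairing would not be seen this way. With the replicate block 1 member fell (Col4a1, limma adjusted p = 0.0419) and 118 of all genes fell, against 612. Probes near background, such as the dim Lama4 and Nid1 probes, limit what can be read.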
